A study of Mus musculus with 48 samples.

Results

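A set of 6 genes of glucose output were followed across 16 groups of cultured mouse kidney slices: G6pc, Slc37a4, Pck1, Fbp1, Pck2 and G6pc3. They were taken as the rows of a count table of 55487 Ensembl gene IDs that carry these symbols, and each symbol matched 1 ID, so 6 of 55487 rows are described. G6pc is called G6pc1 in newer gene tables. All 6 passed the filter on low counts in every comparison.

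The slices were cut from male kidneys of C57BL/6J and of DBA/2J, inbred mice from which the BXD recombinant lines were bred. Each strain had 8 conditions: control, tunicamycin and cyclosporin A, each at 6 h and at 24 h, and the arms labelled normoxia (ischemia model) and normoxia-hyperoxia (reperfusion model), both titled 24 h. Every group held 3 libraries that the labels number as biological replicates. No genetic alteration is labelled in any group, and ages, drug doses and oxygen levels are not given in the labels. The oxygen arms have no control labelled as their own, so the 24 h and the 6 h controls, which the titles place in another experiment, served as references. The labels do not tie replicates to separate mice, so p-values measure the spread between these libraries, which may be technical. Whether an oxygen arm differs from the controls through oxygen or through another feature of that experiment cannot be told apart.

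Gluconeogenesis makes glucose from lactate, glutamine, glycerol and other carbon, and the kidney shares this task with the liver. In the kidney it is a property of the proximal tubule, which carries the complete enzyme set and releases glucose to the blood. The pathway runs glycolysis backwards and bypasses its irreversible steps with phosphoenolpyruvate carboxykinase, fructose-1,6-bisphosphatase and glucose-6-phosphatase. Hormones and fuel state act on it largely through transcription of Pck1 and G6pc.

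Pck1 encodes the cytosolic phosphoenolpyruvate carboxykinase, which turns oxaloacetate into phosphoenolpyruvate. It lies at chr2:173153048-173159273 on the plus strand (GRCm38, GENCODE M21). Pck2 encodes the mitochondrial form of the same enzyme, which is also induced by amino acid shortage in many cells, and lies at chr14:55540266-55551242 on the plus strand. Fbp1 encodes the fructose-1,6-bisphosphatase of liver and kidney, at chr13:62864753-62888282 on the minus strand. G6pc encodes the catalytic subunit of glucose-6-phosphatase, which frees glucose in the endoplasmic reticulum, and lies at chr11:101367561-101377903 on the plus strand. Slc37a4 encodes the transporter that brings glucose-6-phosphate into that compartment, at chr9:44396852-44402968 on the plus strand. G6pc3 encodes a ubiquitous glucose-6-phosphatase relative known for its need in neutrophils, at chr11:102189620-102194081 on the plus strand. The counts are of whole genes over their exons. An antisense gene overlaps Pck2 and a microRNA gene lies within an intron of Slc37a4, with at most 7 and 6 counts in any library.

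The promoters of G6pc, Pck1 and Pck2 are shown because G6pc had the widest range of the 6 genes, and because Pck1 and Pck2, which encode forms of 1 enzyme, moved in opposite directions with time in culture. Each run holds the 250 bases before the RefSeq start site in the C57BL/6J reference genome (GRCm38.p6), at chr11:101367466-101367715, chr2:173152823-173153072 and chr14:55540016-55540265, all on the plus strand. Capitals mark matches to short motifs searched on both strands.
G6pc: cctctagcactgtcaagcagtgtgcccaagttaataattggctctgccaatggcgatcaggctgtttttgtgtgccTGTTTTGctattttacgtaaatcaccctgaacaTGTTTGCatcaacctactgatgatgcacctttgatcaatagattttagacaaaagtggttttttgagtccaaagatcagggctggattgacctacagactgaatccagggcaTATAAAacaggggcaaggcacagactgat
Pck1: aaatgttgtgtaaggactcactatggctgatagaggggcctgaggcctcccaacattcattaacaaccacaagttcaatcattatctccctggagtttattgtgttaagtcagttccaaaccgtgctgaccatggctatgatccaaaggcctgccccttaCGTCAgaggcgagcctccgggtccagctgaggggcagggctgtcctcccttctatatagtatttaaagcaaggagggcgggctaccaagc
Pck2: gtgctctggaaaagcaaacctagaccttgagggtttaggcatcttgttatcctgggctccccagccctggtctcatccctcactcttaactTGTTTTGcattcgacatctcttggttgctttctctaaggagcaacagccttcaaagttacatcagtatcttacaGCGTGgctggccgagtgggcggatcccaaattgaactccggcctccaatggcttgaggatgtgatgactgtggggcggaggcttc
The motifs were TGACGTCA (the full cAMP response element) and its core TGACG, the forkhead letters TGTTTNC, the insulin response type TGTTTTG, the glucocorticoid core TGTTCT, the hypoxia response cores ACGTG and GCGTG, and the TATA box TATAAA. Positions count back from the start site. In G6pc the matches were TGTTTTG at -174 to -168, TGTTTNC at -141 to -135 and TATAAA at -29 to -24. In Pck1 the match was on the minus strand, TGACG at -90 to -86. In Pck2 they were TGTTTTG at -159 to -153 and GCGTG at -85 to -81. Of 32851 promoter windows of this length, 5.56% held TGTTTTG, 17.8% TGTTTNC, 17.8% TGACG, 28.2% GCGTG and 12.4% TATAAA. The letters are a description of the reference and not evidence of binding, and no motif without a match is read as a missing factor.

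Total counts ranged from 5619309 to 25137581 a library. The shallowest was replicate 2 of DBA/2J normoxia-hyperoxia, the next lowest total was 12384733, and leaving it out changed no call for a member in the comparisons of normoxia-hyperoxia with its references, but changed 2 strain calls given below (G6pc3 under normoxia and Pck1 under normoxia-hyperoxia). Mitochondrial genes took 8.05% to 16.3% of counts in the 6 h controls, 3.39% to 7.87% in the 24 h controls, 11.8% to 25.6% under normoxia and 10.98% to 17.36% under normoxia-hyperoxia, and the share differed by strain, as given with the strain differences. Proximal tubule markers were detected throughout, with Lrp2 at 30.8 CPM or more and Cubn at 4.81 CPM or more. The hepatocyte markers were low, with Cps1 at 0.351 CPM (counts scaled to the size of the library) at most and Alb at 7.57 CPM at most, and the mean of G6pc in C57BL/6J 24 h controls, 3.34 CPM, lay within that range. Their sum moved with the members in C57BL/6J, with medians of 10.3 CPM in 6 h controls, 1.45 in 24 h controls, 9.49 under normoxia and 2.59 under normoxia-hyperoxia, against 3.42, 1.42, 3.59 and 3.54 CPM in DBA/2J. Their part in the results was not tested.

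The summed level of 16 proximal tubule markers moved with the conditions, and its values stand here because most of the 6 genes are proximal tubule genes. In C57BL/6J it ran from 11376 to 20513 CPM in the 6 h controls, from 1775 to 2410 CPM in the 24 h controls, from 34627 to 43157 CPM under normoxia and from 1201 to 1642 CPM under normoxia-hyperoxia. In DBA/2J the same sums were 23226 to 29073, 4107 to 7727, 55951 to 61496 and 2707 to 3973 CPM. In bulk tissue, fewer proximal tubule cells and less RNA per cell cannot be told apart. The part of these markers in the results below was not tested.

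**Figure D1:**
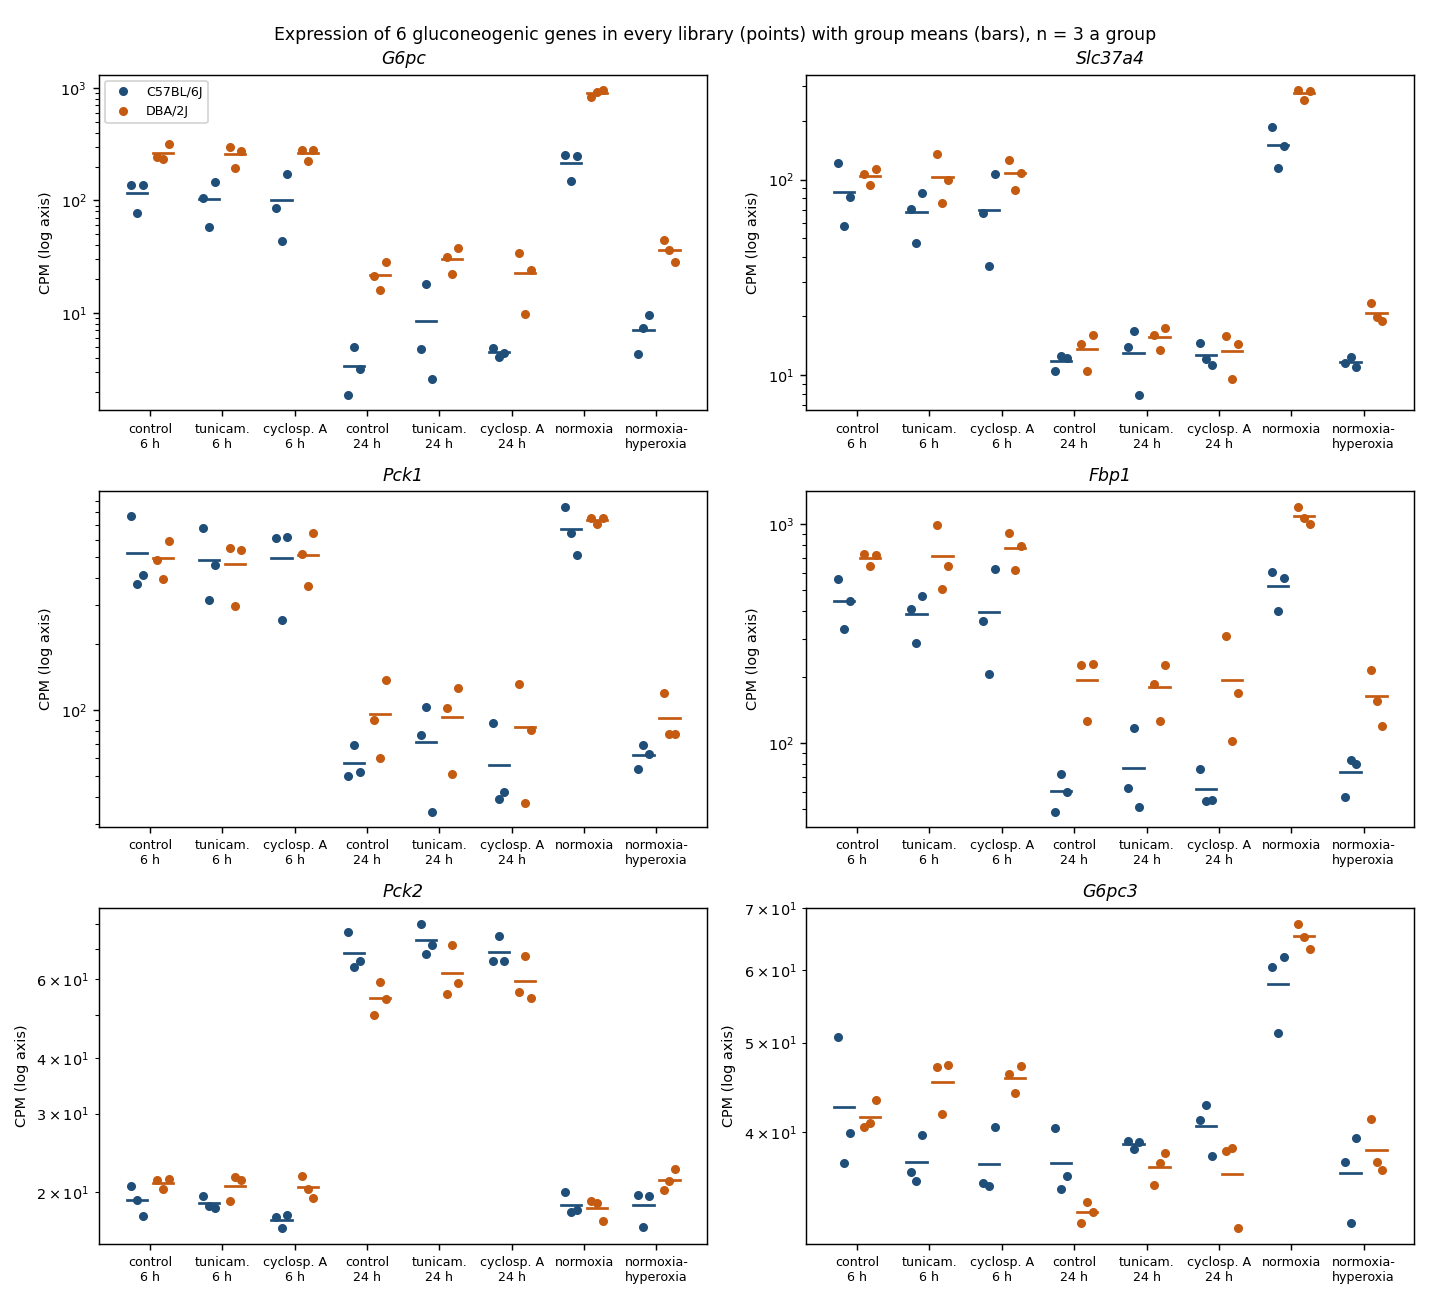
Level of each of the 6 genes in CPM (log axis) in every library, by condition, with C57BL/6J in blue and DBA/2J in orange; points are libraries and bars are means of 3. G6pc, Slc37a4, Pck1 and Fbp1 are low in all 24 h groups of the control and drug experiment and under normoxia-hyperoxia, while Pck2 is high only in the 24 h control and drug groups among the groups plotted.

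G6pc had the widest range of the 6 genes. Its group means ran from 3.34 ± 1.57 CPM in C57BL/6J 24 h controls to 900.3 ± 69.3 CPM in DBA/2J normoxia slices (SD, n = 3), a ratio of 269. The corresponding ratio of highest to lowest group mean was 23.7 for Slc37a4, 18.1 for Fbp1, 13.2 for Pck1, 4.24 for Pck2 and 2.00 for G6pc3. The order of the 16 groups had few clear steps. Neighbours in the order overlapped in their libraries in 13 of 15 pairs for G6pc, 14 for Pck1, 14 for Pck2, 11 for Fbp1, 12 for Slc37a4 and 13 for G6pc3.

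For G6pc the clear steps set DBA/2J normoxia above all other groups, and C57BL/6J normoxia (216.3 ± 57.4 CPM, SD, n = 3) above C57BL/6J 6 h controls (117.3 ± 34.03). The single clear step of Pck1 separated the normoxia and 6 h groups from the remaining groups. The single clear step of Pck2 set the 6 groups of 24 h control and drug slices above the other 10. Normoxia-hyperoxia thus lay on the low side for both carboxykinase genes. G6pc3 stood apart only under normoxia, with 65.3 ± 2.09 CPM in DBA/2J and 57.9 ± 5.77 CPM in C57BL/6J (SD, n = 3), while its other group means lay between 32.7 and 45.8 CPM.

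Compared per kilobase of transcript, which sets levels of different genes on 1 scale, Fbp1 reached the highest level of the 6 at 738 CPM per kb in DBA/2J normoxia. G6pc reached 373 CPM per kb, Pck1 277, Slc37a4 118, G6pc3 41.5 and Pck2 15.9 in their highest groups. The length used matters for some: with all exons merged the highest levels were 641 for Fbp1, 373 for G6pc, 215 for Pck1, 96.6 for Slc37a4, 29.3 for G6pc3 and 9.41 CPM per kb for Pck2, in the same order. In their lowest groups the levels were 40.8 for Fbp1, 21.01 for Pck1, 20.8 for G6pc3, 4.97 for Slc37a4, 3.75 for Pck2 and 1.39 CPM per kb for G6pc.

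Time in culture was addressed by setting 24 h against 6 h controls, averaged over the strains. G6pc, Slc37a4, Pck1 and Fbp1 fell, G6pc3 fell slightly, and Pck2 rose. All 6 passed the edgeR quasi-likelihood test at a Benjamini-Hochberg adjusted p under 0.05 over all genes, in a comparison where 72.0% of 16962 genes did (34.7% higher and 37.4% lower). A share of this size makes the count of members near the background, and the sizes of the changes carry the description.

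G6pc stood at 136.9, 78.0 and 137.0 CPM in C57BL/6J 6 h controls and at 1.876, 5.001 and 3.156 CPM at 24 h. In DBA/2J it stood at 243.4, 235.3 and 318.8 CPM at 6 h and at 21.1, 16.1 and 28.3 CPM at 24 h. The groups did not overlap in either strain, and the means fell 35.1-fold and 12.2-fold. For scale, 54.2% of 16962 genes separated the times in the same direction in both strains (26.9% higher and 27.3% lower at 24 h). The fitted log2 fold change was -4.38 (SE 0.24, adjusted p 1.7e-08) over both strains.

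Slc37a4, which supplies the substrate to the same enzyme, fell from 121.4, 57.6 and 81.0 CPM to 10.5, 12.5 and 12.3 CPM in C57BL/6J. DBA/2J slices fell from 106.2, 93.4 and 113.8 CPM to 14.4, 10.5 and 15.9 CPM. Every 24 h library lay below every 6 h library of its strain, at a log2 fold change of -2.94 (SE 0.18, adjusted p 2.7e-08).

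Pck1 fell from 772.2, 374.1 and 411.1 CPM to 49.6, 69.1 and 52.0 CPM in C57BL/6J. In DBA/2J it went from 485.4, 396.2 and 593.9 CPM to 89.9, 60.0 and 136.7 CPM. The 2 times did not overlap in either strain, and the log2 fold change was -2.79 (SE 0.25, adjusted p 9.5e-07). Fbp1 followed with -2.39 (SE 0.18, adjusted p 1.8e-07), from means of 447.1 to 60.4 CPM in C57BL/6J and 701.2 to 194.9 CPM in DBA/2J.

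Pck2 was the exception among the 6. It rose from 20.6, 19.2 and 17.7 CPM to 76.7, 63.8 and 66.1 CPM in C57BL/6J, and from 21.3, 20.4 and 21.4 CPM to 49.8, 59.3 and 54.2 CPM in DBA/2J. No 24 h library came near a 6 h library, and the log2 fold change was 1.59 (SE 0.07, adjusted p 1.9e-10). G6pc3 fell by 0.29 on the log2 scale (SE 0.08, adjusted p 0.0035), overlapped between the times in C57BL/6J, and was not called when counts were scaled by library totals alone (-0.08, adjusted p 0.376).

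The 16 proximal tubule markers all fell over the same interval, with a median log2 fold change of -2.61 against -0.02 for all genes tested. Relative to their sum, Fbp1 hardly moved: the log2 ratio was -5.17 ± 0.06 at 6 h and -5.14 ± 0.07 at 24 h in C57BL/6J, and -5.19 ± 0.13 and -5.03 ± 0.05 in DBA/2J (SD, n = 3). G6pc fell relative to that sum, from -7.11 ± 0.17 to -9.40 ± 0.49 in C57BL/6J and from -6.60 ± 0.08 to -8.18 ± 0.29 in DBA/2J (SD, n = 3). Pck1 went from -5.00 ± 0.31 to -5.22 ± 0.13 in C57BL/6J and from -5.72 ± 0.14 to -6.09 ± 0.34 in DBA/2J. Slc37a4 went from -7.57 ± 0.15 to -7.49 ± 0.10 in C57BL/6J and from -7.94 ± 0.07 to -8.84 ± 0.23 in DBA/2J (SD, n = 3). Markers of other kidney cells fell too: those of distal convoluted tubule (-1.97), principal cells (-1.44) and intercalated cells (-1.76), 2 of 2 thick ascending limb markers (median -1.67), 2 of 2 podocyte markers (-0.86), 2 of 2 stromal markers (-1.64), and 1 of 2 endothelial (-0.66) and 1 of 2 leukocyte markers (-0.46). The mitochondrial share of counts also fell, as given above, and its part was not tested.

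The wider pathway split by direction. Of 12 other genes for steps between pyruvate and glucose, 6 rose and 6 fell, with a median of 0.01. Among those that fell were Pcx, the pyruvate carboxylase that opens the pathway (-2.19, SE 0.20), and Fbp2, the muscle fructose bisphosphatase (-1.74, SE 0.17). Eno1 (1.48, SE 0.07), Pgk1 (1.25, SE 0.07) and Pgam1 (1.10, SE 0.07), reversible enzymes shared with glycolysis, rose.

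Of 12 glycolytic and other opposing enzymes, 6 rose and 4 fell, with a median of 0.50. The liver-type phosphofructokinase Pfkl rose by 1.49 (SE 0.09), the pyruvate kinase Pkm by 1.35 (SE 0.10) and the hexokinase Hk2 by 1.29 (SE 0.13), while the pyruvate kinase of liver and kidney, Pklr, fell by 1.77 on the log2 scale (SE 0.22). Substrate supply fell in 18 of 22 genes and rose in 2, with a median of -1.35. The lactate and monocarboxylate carriers Slc5a12 (-3.16, SE 0.35) and Slc5a8 (-2.97, SE 0.16) and the dicarboxylate carrier Slc13a3 (-2.46, SE 0.25) fell furthest.

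All 3 glucose transporters of the tubule fell (one of them, Slc5a2, is also among the 16 proximal tubule markers), among them Slc2a2, the exit route of glucose across the basolateral membrane (-2.02, SE 0.23). Of 23 regulators, 14 fell and 6 rose, with a median of -0.48. Igfbp1, an insulin-repressed target gene, fell by 3.08 on the log2 scale (SE 0.36). The nuclear receptor Hnf4a gave -2.27 (SE 0.17), and Ppargc1a, the co-activator of hepatic gluconeogenic transcription, -2.19 (SE 0.11).

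**Figure D2:**
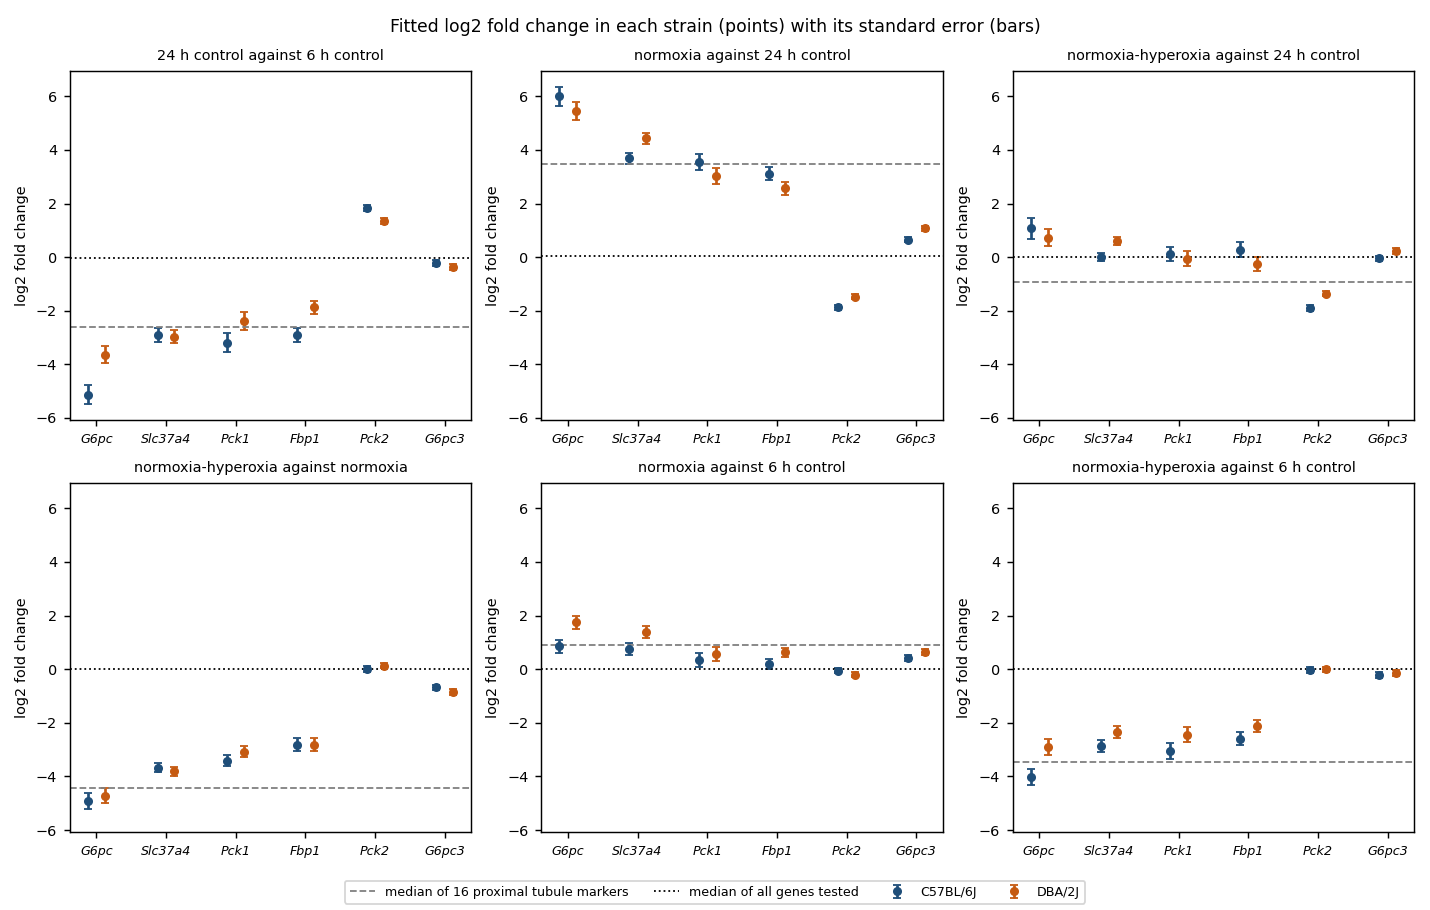
Fitted log2 fold change of each gene in each strain (points) with its standard error (bars), for the 6 comparisons of times and oxygen arms; the dashed line is the median of 16 proximal tubule markers and the dotted line that of all genes tested. Pck2 lies on the opposite side of the dotted line from G6pc in the panels of 24 h against 6 h controls and of both oxygen arms against 24 h controls. For normoxia against 6 h controls Pck2 also lies below that line and G6pc above it, with Pck2 near the line.

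Normoxia against 24 h controls gave nearly the mirror image. G6pc, Slc37a4, Pck1, Fbp1 and G6pc3 were higher under normoxia and Pck2 was lower. This made 6 of 6 members called, where 82.0% of 17375 genes were called (42.4% higher and 39.7% lower). The 2 comparisons share the 24 h controls, so their opposite signs are not independent of each other.

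G6pc read 251.9, 150.1 and 247.0 CPM in C57BL/6J normoxia slices and 825.5, 913.0 and 962.3 CPM in DBA/2J. These means lay 64.7-fold and 41.2-fold above those of the 24 h controls, with no overlap. The log2 fold change was 5.73 (SE 0.24, adjusted p 1.8e-09).

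Slc37a4 stood at 185.0, 115.1 and 149.2 CPM in C57BL/6J and at 287.9, 255.1 and 285.0 CPM in DBA/2J under normoxia, with a log2 fold change of 4.06 (SE 0.14, adjusted p 2.1e-11). Pck1 was at 848.2, 643.2 and 512.5 CPM in C57BL/6J and at 753.8, 708.2 and 750.5 CPM in DBA/2J, with 3.29 (SE 0.21, adjusted p 5.6e-08). Fbp1 gave 2.84 (SE 0.18, adjusted p 3.1e-08). For these 3 genes too, each normoxia library lay above each 24 h control library of its strain. Of 17375 genes, 65.2% separated in the same direction in both strains (32.1% higher and 33.1% lower under normoxia).

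Pck2 was at 20.002, 18.03 and 18.22 CPM in C57BL/6J and 19.1, 18.9 and 17.2 CPM in DBA/2J, close to its level in the 6 h controls. Against the 24 h controls this was a log2 fold change of -1.68 (SE 0.07, adjusted p 2.3e-12), with no overlap. G6pc3 rose by 0.86 (SE 0.06, adjusted p 2.0e-09). The proximal tubule markers rose in 16 of 16, with a median of 3.47 against 0.05 for all genes. Other tubule markers rose as well, namely 2 of 2 of the thick ascending limb (median 1.56) and the single markers of distal convoluted tubule (1.32), principal cells (2.203) and intercalated cells (1.28). Both podocyte markers fell (-0.48), of 2 endothelial markers 1 rose and 1 fell (-0.14), of 2 leukocyte markers 1 rose (0.58), and of 2 stromal markers 0 were called (0.20). Summed thick ascending limb markers ran from 1586 to 3993 CPM in 24 h controls and from 8551 to 14894 CPM under normoxia in C57BL/6J, and from 720.3 to 2671 and from 2043 to 4246 CPM in DBA/2J. The part of these cells in the result was not tested.

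Relative to the proximal tubule sum, the members took different courses under normoxia. The log2 ratio of Fbp1 to that sum fell from -5.14 ± 0.07 in C57BL/6J 24 h controls to -6.22 ± 0.19 and from -5.03 ± 0.05 to -5.74 ± 0.08 in DBA/2J. That of G6pc went from -9.40 ± 0.49 to -7.51 ± 0.30 in C57BL/6J and from -8.18 ± 0.29 to -6.02 ± 0.18 in DBA/2J (SD, n = 3). G6pc therefore rose by more than the summed markers and Fbp1 by less, as described by these ratios and without a test. Pck1 went from -5.22 ± 0.13 to -5.88 ± 0.30 in C57BL/6J and from -6.09 ± 0.34 to -6.30 ± 0.05 in DBA/2J. Slc37a4 went opposite ways by strain, from -7.49 ± 0.10 to -8.03 ± 0.19 in C57BL/6J and from -8.84 ± 0.23 to -7.72 ± 0.06 in DBA/2J (SD, n = 3).

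Among the other steps between pyruvate and glucose, 5 of 11 genes tested rose and 6 fell, with a median of -1.02. Pcx (2.81, SE 0.19) and Fbp2 (2.03, SE 0.15) rose, while the phosphoglucose isomerase Gpi1 (-2.18, SE 0.08), Eno1 (-2.09, SE 0.06) and Pgk1 (-1.79, SE 0.06) fell. Of the 12 opposing enzymes, 8 fell and 3 rose, with a median of -2.18. Hk2 fell from means of 206.5 and 184.4 CPM in the 24 h controls of C57BL/6J and DBA/2J to 1.14 and 1.24 CPM (log2 fold change -7.32, SE 0.09). Pfkfb3, which makes the main activator of phosphofructokinase, changed by -4.71 (SE 0.10).

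Substrate supply rose in 19 of 22 genes and fell in 2, with a median of 1.89, led by Slc5a8 (4.22, SE 0.13), Slc13a3 (4.16, SE 0.23) and the glutamine carrier Slc38a3 (3.71, SE 0.15). The 3 glucose transporters rose. Regulators split evenly, 11 up and 11 down of 23, with a median of -0.06. Hnf4a (3.59, SE 0.16), Igfbp1 (3.25, SE 0.28) and Klf15, a glucocorticoid-induced factor of amino acid use (2.90, SE 0.07), rose. The pyruvate dehydrogenase kinase Pdk4 (-3.94, SE 0.21), Nr4a1 (-3.56, SE 0.27) and Cebpb (-3.24, SE 0.13) fell.

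**Figure D3:**
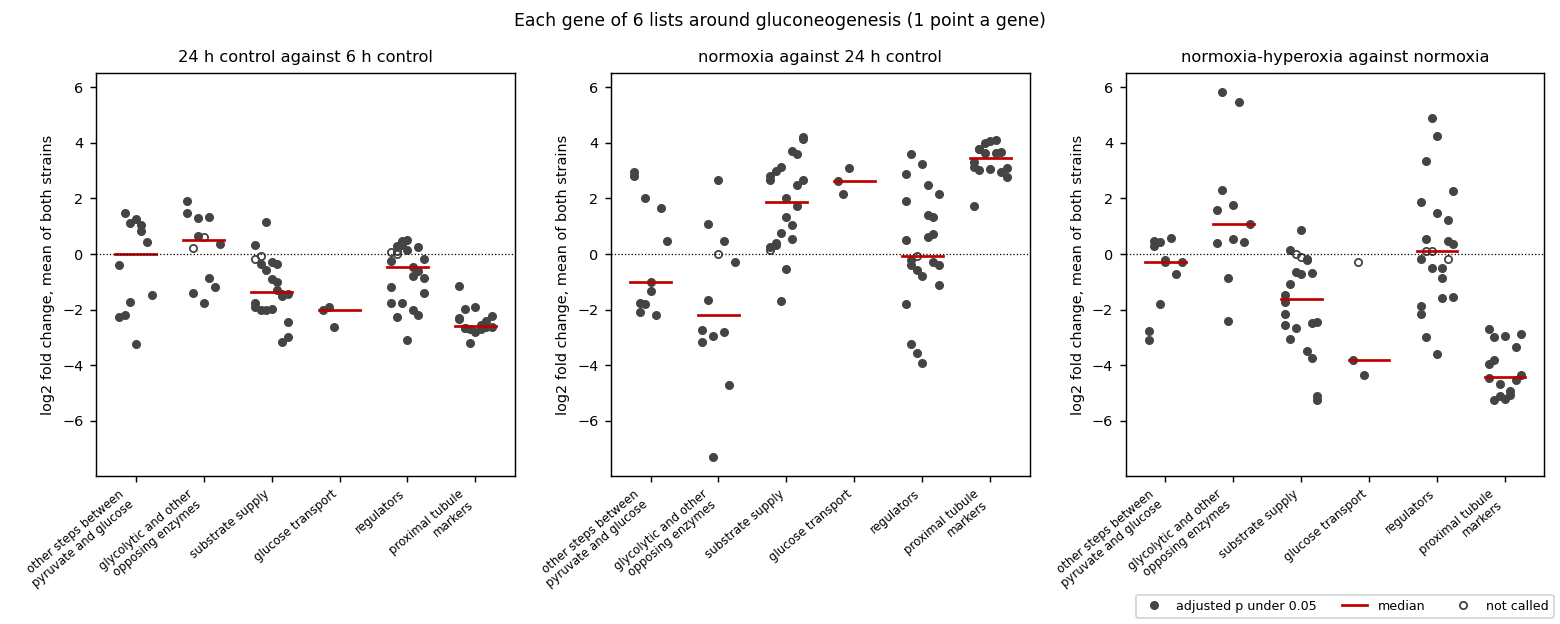
Log2 fold change, mean of both strains, of each gene in 6 lists (1 point a gene; filled, adjusted p under 0.05; open, not called; red bar, median) in 3 comparisons. The list of proximal tubule markers lies wholly on 1 side in each panel, while the other steps between pyruvate and glucose spread to both sides of 0.

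Normoxia-hyperoxia against normoxia compared the 2 oxygen arms with each other. The titles name them apart, as Ischemia and Reperfusion, so the oxygen step and any other difference between the arms cannot be told apart. G6pc, Slc37a4, Pck1, Fbp1 and G6pc3 were lower after hyperoxia, and Pck2 did not pass the test. That is 5 of 6 members called, all lower, where 73.5% of 17228 genes were called (37% higher and 36.5% lower).

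G6pc stood at 4.305, 7.342 and 9.626 CPM in C57BL/6J and at 44.1, 36.3 and 28.5 CPM in DBA/2J normoxia-hyperoxia slices. Its means were 30.5-fold and 24.8-fold below those of normoxia, with a log2 fold change of -4.81 (SE 0.21, adjusted p 1.5e-09) and no overlap. Slc37a4 stood at 11.56, 12.4 and 11.001 CPM in C57BL/6J and at 23.47, 19.75 and 18.97 CPM in DBA/2J, with -3.74 (SE 0.12, adjusted p 2.4e-12).

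Pck1 was at 53.9, 68.8 and 62.9 CPM and at 119.7, 77.6 and 77.3 CPM in the 2 strains, with -3.25 (SE 0.15, adjusted p 2.8e-10). Fbp1 gave -2.81 (SE 0.17, adjusted p 8.1e-09) and G6pc3 -0.76 (SE 0.07, adjusted p 1.0e-07). Each of these 5 genes separated the arms without overlap in both strains, as 53.7% of all genes did in 1 direction (27.2% lower). Pck2 had means of 18.7 ± 1.67 and 21.3 ± 1.20 CPM (SD, n = 3) after hyperoxia, and its log2 fold change was 0.07 (SE 0.07, adjusted p 0.40).

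The proximal tubule markers fell in 16 of 16, with a median of -4.42 against 0.02 for all genes, which was more than Slc37a4, Pck1 and Fbp1 changed. Pcx (-3.11, SE 0.12) fell with the members, among 7 of 11 other route genes that fell and 4 that rose (median -0.29). Opposing enzymes rose in 9 of 11 tested and fell in 2, with a median of 1.09. Hk2 rose by 5.85 (SE 0.20), Pfkfb3 by 5.48 (SE 0.15) and the phosphofructokinase Pfkp by 2.31 (SE 0.09).

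Slc2a2 fell by 3.80 on the log2 scale (SE 0.14) and the sodium-glucose carrier Slc5a2 by 4.36 (SE 0.21), while 18 of 22 substrate genes fell and 2 rose (median -1.62). Markers of other kidney cells did not fall with them: 2 podocyte markers (median 1.39), 2 endothelial (1.00) and 2 leukocyte markers (0.64) rose, and of 2 thick ascending limb markers (0.42) 0 were called. The single markers of distal convoluted tubule (1.31), principal cells (0.53) and intercalated cells (0.86) rose, as did 1 of 2 stromal markers (0.46), and their part in the result was not tested. Regulators again divided, 10 up and 10 down of 23, with a median of 0.12. Nr4a1 (4.90, SE 0.33), Pdk4 (4.24, SE 0.23) and Cebpb (3.35, SE 0.22) rose, and Igfbp1 (-3.59, SE 0.33) and Hnf4a (-3.00, SE 0.15) fell.

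Normoxia-hyperoxia against 24 h controls compared the 2 states in which most of the members were low. Over both strains G6pc and Slc37a4 were slightly higher under normoxia-hyperoxia, with Slc37a4 near its control level in C57BL/6J, Pck2 was much lower, and Pck1, Fbp1 and G6pc3 did not pass the test. Thus 3 of 6 members were called, where 68.2% of 17256 genes were (34.1% higher and 34.1% lower).

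Pck2 gave the largest difference of the 6, -1.62 (SE 0.07, adjusted p 1.6e-10), with no overlap in either strain. Of 17256 genes, 48.6% separated in the same direction in both strains (23.4% higher and 25.2% lower). G6pc gave 0.90 (SE 0.25, adjusted p 0.0077). Within strains it was called in C57BL/6J (1.07, SE 0.39, adjusted p 0.034), where the libraries overlapped. It was not called in DBA/2J (0.73, SE 0.32, adjusted p 0.074, or 0.0196 with the replicate block), where they did not overlap. Slc37a4 gave 0.30 (SE 0.11, adjusted p 0.022). Its means were 11.65 against 11.73 CPM in C57BL/6J, where the libraries overlapped (-0.01, SE 0.15), and 20.7 against 13.6 CPM in DBA/2J, where they did not (0.61, SE 0.15, adjusted p 0.0030). The difference between the strains, 0.62 (SE 0.21, adjusted p 0.17), did not pass the test. The call over both strains ended without replicate 1 of C57BL/6J 24 h controls, replicate 2 of DBA/2J 24 h controls or replicate 1 of DBA/2J normoxia-hyperoxia (adjusted p up to 0.0663 over each library left out), with scaling by library totals alone, and with 1 fit of all 48 libraries.

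Pck1 (0.03, SE 0.19), Fbp1 (0.02, SE 0.19) and G6pc3 (0.09, SE 0.07) had values near 0, and all 3 changed sign with scaling by library totals alone. The proximal tubule markers meanwhile fell in 10 of 16 and rose in 1, with a median of -0.92 against 0.0036 for all genes. Markers of other kidney cells rose: 2 of 2 thick ascending limb (median 1.96), 2 of 2 podocyte (0.88), 2 of 2 leukocyte (1.21), 1 of 2 endothelial (0.84) and 1 of 2 stromal markers (0.64), and those of distal convoluted tubule (2.62), principal cells (2.72) and intercalated cells (2.12). The distal convoluted tubule marker ran from 526.3 to 729.4 CPM in 24 h controls and from 3749 to 6290 CPM under normoxia-hyperoxia in C57BL/6J, and from 1057 to 1399 and from 5626 to 6455 CPM in DBA/2J. Their part in the members' values was not tested. Of 11 other genes between pyruvate and glucose, 6 fell (median of the list -1.25), most of all Eno1 (-1.82, SE 0.07) and Gapdh (-1.63, SE 0.07), and 2 rose. Substrate genes rose in 9 of 22 and fell in 6 (median 0.15), glucose transporters rose in 1 and fell in 2 of 3 (-1.19), and opposing enzymes rose in 3 and fell in 5 of 12 (-0.36). Regulators rose in 14 of 23 and fell in 4 (0.31), with Ppargc1a up by 1.91 (SE 0.10).

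Set against the 6 h controls, normoxia had 5 of 6 members higher over both strains, where 65.8% of 16819 genes were called (32.9% higher and 32.9% lower), and time differs between these groups. G6pc rose by 1.30 (SE 0.16, adjusted p 1.4e-05), Slc37a4 by 1.08 (SE 0.16, adjusted p 7.9e-05) and G6pc3 by 0.53 (SE 0.08, adjusted p 2.8e-05). Fbp1 gave 0.41 (SE 0.12, adjusted p 0.0092) and Pck1 0.46 (SE 0.18, adjusted p 0.043), the latter lost when any 1 of 8 of the 12 libraries was left out. The 4 whose removal kept the Pck1 call were replicate 1 of C57BL/6J 6 h controls, replicate 3 of DBA/2J 6 h controls, replicate 3 of C57BL/6J normoxia and replicate 2 of DBA/2J normoxia. Pck2 gave -0.13 (SE 0.07, adjusted p 0.095). Within strains, 3 members were called higher in C57BL/6J (G6pc, Slc37a4 and G6pc3), where 24.7% of all genes were, and 4 in DBA/2J (these and Fbp1), where 27.8% were. With the replicate number as a block Pck1 was called as well, in C57BL/6J (0.38, adjusted p 0.0135 against 0.298) and in DBA/2J (0.60, adjusted p 0.000595 against 0.0765). The libraries of Pck1, Fbp1 and Slc37a4 overlapped in C57BL/6J, at folds of 1.29, 1.17 and 1.73, and did not in DBA/2J. Over all genes, 22.3% were higher without overlap in both strains. With 1 fit of all 48 libraries neither Fbp1 (adjusted p 0.141) nor Pck1 was called. Proximal tubule markers rose in 14 of 16, with a median of 0.91 against 0.02 for all genes, and opposing enzymes fell in 8 of 11 and rose in 1 (median -1.28). Of other cell types, 2 of 2 podocyte (list median -1.39), 2 of 2 endothelial (-0.84) and 2 of 2 stromal markers (-1.48) fell, as did those of distal convoluted tubule (-0.69) and intercalated cells (-0.53). The principal cell marker (0.72) and 1 of 2 leukocyte markers (0.07) rose, and of 2 thick ascending limb markers 0 were called (-0.15). Their part in the result was not tested.

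Normoxia-hyperoxia against 6 h controls had 4 of 6 members lower, where 44.9% of 16841 genes were called (22.4% higher and 22.5% lower). G6pc gave -3.46 (SE 0.21, adjusted p 1.4e-07), Pck1 -2.75 (SE 0.20, adjusted p 6.1e-07), Slc37a4 -2.62 (SE 0.16, adjusted p 8.4e-08) and Fbp1 -2.35 (SE 0.17, adjusted p 3.0e-07). Pck2 (-0.02, SE 0.07) and G6pc3 (-0.18, SE 0.09) were not called, though G6pc3 was without replicate 2 of C57BL/6J 6 h controls (adjusted p 0.033). The proximal tubule markers fell in 16 of 16, with a median of -3.48 against 0.02 for all genes. Markers of distal convoluted tubule (list median 0.67), principal cells (1.30) and intercalated cells (0.38) and 2 of 2 leukocyte markers (0.76) rose, 1 of 2 stromal markers fell (-0.98), and of 2 thick ascending limb (0.32), 2 podocyte (0.04) and 2 endothelial markers (0.20) 0 were called. Their part in the result was not tested. Among the other genes between pyruvate and glucose 10 of 12 fell and 0 rose (median -0.56), and substrate genes fell in 18 of 22 and rose in 0 (-1.10).

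The ratio of the cytosolic to the mitochondrial carboxykinase summarises the opposite course of the pair within a library. Per kilobase, Pck1 exceeded Pck2 46.4-fold ± 16.5 in the 6 h controls of C57BL/6J and 40.6-fold ± 7.31 in those of DBA/2J (SD, n = 3). In 24 h controls the ratio was 1.46 ± 0.39 and 3.09 ± 1.31, normoxia gave 61.5 ± 12.4 and 69.8 ± 5.39, and after hyperoxia it was 5.82 ± 1.21 and 7.55 ± 2.40 (SD, n = 3). It was lowest in the 24 h groups, where the lowest libraries stood at 0.830 (tunicamycin) and 0.903 (cyclosporin A) in C57BL/6J and at 0.963 (cyclosporin A) in DBA/2J. These are below 1 only with the length of the principal transcript: with all exons of each gene merged they were 1.09, 1.18 and 1.26.

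The catalytic subunits of the glucose-6-phosphatases also changed places. Per kilobase, G6pc stood above G6pc3 in 6 h controls, at 1.79 ± 0.43 in C57BL/6J and 4.16 ± 0.56 in DBA/2J, and under normoxia, at 2.41 ± 0.44 and 9.01 ± 0.97. In 24 h controls it stood below, at 0.0606 ± 0.0320 and 0.436 ± 0.126, and likewise under normoxia-hyperoxia, at 0.128 ± 0.046 and 0.615 ± 0.095 (SD, n = 3).

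**Figure D4:**
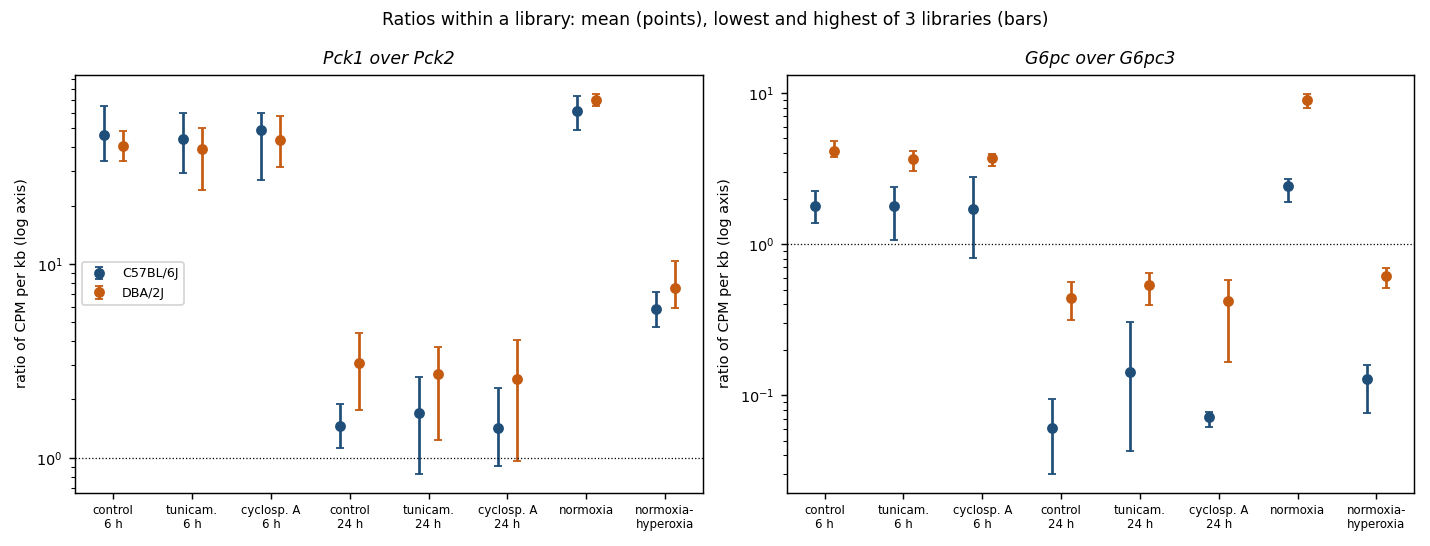
Ratio of Pck1 to Pck2 (left) and of G6pc to G6pc3 (right), each in CPM per kb on a log axis, by condition and strain; points are means and bars run from the lowest to the highest of 3 libraries. In the left panel the 24 h control and drug groups lie lowest in each strain; in the right panel these and normoxia-hyperoxia lie below 1, and normoxia lies highest in each strain.

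Neither drug gave a called change in any of the 6 genes. Tunicamycin blocks N-glycosylation and stresses the endoplasmic reticulum, where glucose-6-phosphatase acts, and cyclosporin A is a calcineurin inhibitor with known renal toxicity. At 6 h tunicamycin called 0 of 6 members and 0.0% of 16551 genes, and cyclosporin A 0 of 6 and 0.0% of 16538 genes. At 24 h tunicamycin called 0 of 6 and 1.38% of 16905 genes, and cyclosporin A 0 of 6 and 0.0% of 16887 genes. At an unadjusted edgeR p under 0.05 the members numbered 0, 0, 1 (G6pc3) and 0, beside 1.7%, 4.44%, 12.9% and 6.56% of all genes. DESeq2 called 0 members in each, beside 0, 50, 532 and 20 genes.

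Log2 fold changes of the 6 genes ran from -0.18 to -0.02 for tunicamycin and from -0.14 to -0.02 for cyclosporin A at 6 h, and from -0.10 to 0.24 for cyclosporin A at 24 h. Under tunicamycin at 24 h they ran from 0.12 to 0.92. The largest was that of G6pc (0.92, SE 0.44, adjusted p 0.43), with single values of 4.82, 17.9 and 2.57 CPM in C57BL/6J and 31.1, 22.4 and 37.5 CPM in DBA/2J. In both strains these overlapped the controls, and replicate 2 held the high C57BL/6J value. Of the pathway lists, tunicamycin at 24 h called the transaminase Got1 (0.23, SE 0.05) and Klf15 (0.53, SE 0.11) higher.

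Doses are not given, so the drugs were not compared with each other. An SE of 0.44 for G6pc leaves room for changes that these libraries could not resolve. For Pck2 and G6pc3 the SE lay between 0.05 and 0.08, the smallest of the 6 genes in these comparisons.

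DBA/2J slices held more G6pc than C57BL/6J slices. The difference passed the test in 7 of 8 conditions, from 1.20 (SE 0.28, adjusted p 0.0099) in 6 h controls to 2.69 (SE 0.36, adjusted p 0.00028) in 24 h controls. Under normoxia it was 2.13 (SE 0.26, adjusted p 5.7e-05) and under normoxia-hyperoxia 2.34 (SE 0.29, adjusted p 0.00018). The libraries of the strains did not overlap in these 4 conditions.

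With tunicamycin at 24 h the strain difference of G6pc was 1.80 (SE 0.60, adjusted p 0.068) and was not called, though it was without replicate 2 of C57BL/6J tunicamycin 24 h (adjusted p 0.0018). In the other drug groups it was 1.34 (tunicamycin 6 h, SE 0.31), 1.39 (cyclosporin A 6 h, SE 0.39) and 2.33 (cyclosporin A 24 h, SE 0.45). The value for cyclosporin A at 6 h lost its call without replicate 1 of C57BL/6J, or replicate 1 or 3 of DBA/2J, of that group (adjusted p up to 0.0719). That call, and those of Fbp1 and G6pc3 in the same group, also ended with no filter on low counts.

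Fbp1 was also higher in DBA/2J, in 7 of 8 conditions by the test. Its strain difference was 1.70 (SE 0.25, adjusted p 0.00051) in 24 h controls, 1.14 (SE 0.22, adjusted p 0.0012) under normoxia and 1.15 (SE 0.22, adjusted p 0.0029) under normoxia-hyperoxia. In 6 h controls it was 0.67 (SE 0.24, adjusted p 0.061), a value called without replicate 1 of C57BL/6J 6 h controls or replicate 2 of DBA/2J 24 h controls (adjusted p down to 0.0126). In the drug groups it lay between 0.89 and 1.63, and each of these 4 calls ended without some libraries: 3 of 12 for tunicamycin and 8 of 12 for cyclosporin A at 6 h, and 9 of 12 and 3 of 12 at 24 h (adjusted p up to 0.114, 0.121, 0.154 and 0.0613). The call with tunicamycin at 24 h also ended with no filter on low counts, and with the replicate block (adjusted p 0.0986 against 0.0471).

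Slc37a4 differed between the strains under normoxia (0.96, SE 0.14, adjusted p 0.00010) and normoxia-hyperoxia (0.82, SE 0.16, adjusted p 0.0024). In the other 6 conditions its strain difference lay between 0.05 and 0.63 and was not called, and replicate 1 of C57BL/6J 6 h controls (adjusted p 0.0132 without it) and replicate 3 of C57BL/6J cyclosporin A 6 h (0.021) each decided one of them. With the replicate block the call appeared with tunicamycin at 6 h (adjusted p 0.0159 against 0.124). Pck1 was called in 0 of 8 conditions, with differences from -0.06 to 0.76. By DESeq2 it was called in 1, normoxia-hyperoxia, and at an unadjusted edgeR p under 0.05 in 2. Its call appeared in 24 h controls without replicate 2 of DBA/2J 24 h controls (adjusted p 0.041), and under normoxia-hyperoxia without replicate 1 or 3 of C57BL/6J normoxia or replicate 2 or 3 of DBA/2J normoxia-hyperoxia (adjusted p down to 0.021), or with the replicate block (0.0464 against 0.0518).

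Pck2 was lower in DBA/2J 24 h controls (-0.33, SE 0.09, adjusted p 0.022), a call that ended without replicate 1 of C57BL/6J, or replicate 1 or 3 of DBA/2J, 24 h controls (adjusted p up to 0.128). G6pc3 was higher in DBA/2J with cyclosporin A at 6 h (0.32, SE 0.11, adjusted p 0.046) and under normoxia (0.25, SE 0.10, adjusted p 0.045). Each of those calls ended without any 1 of 9 of the 12 libraries (adjusted p up to 0.143 and 0.21). The call under normoxia also ended with DESeq2, RLE factors, library totals alone, no filter or 1 fit of all libraries (adjusted p up to 0.359). Calls also appeared for G6pc3 with tunicamycin at 6 h without any 1 of 3 libraries, replicates 1 and 2 of C57BL/6J 6 h controls and replicate 2 of DBA/2J tunicamycin 6 h (adjusted p down to 0.017), and with the replicate block (0.0416 against 0.069). They appeared for Pck2 at 24 h without replicate 2 of DBA/2J tunicamycin (0.0243) or of DBA/2J cyclosporin A (0.0403).

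In background terms, 1 of 6 members differed by strain in 6 h controls (26.2% of all genes), 2 with tunicamycin at 6 h (24.0%) and 3 with cyclosporin A at 6 h (32.6%). At 24 h, 3 differed in controls (22.2%), 1 with tunicamycin (18.6%) and 2 with cyclosporin A (20.7%). Under normoxia 4 differed (46.8%) and under normoxia-hyperoxia 3 (25.7%). With 6 genes, none of these counts is read as a property of the set.

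Proximal tubule markers were higher in DBA/2J too, in 10 of 16 markers in 6 h controls (median 0.87), 14 in 24 h controls (1.57), 13 under normoxia (1.05) and 13 under normoxia-hyperoxia (1.68), with none lower. The medians of all genes in these 4 contrasts were -0.00026, 0.038, 0.083 and 0.0032. Relative to the proximal tubule sum, G6pc remained higher in DBA/2J: the log2 ratios were -6.60 ± 0.08 against -7.11 ± 0.17 in 6 h controls, -8.18 ± 0.29 against -9.40 ± 0.49 in 24 h controls, -6.02 ± 0.18 against -7.51 ± 0.30 under normoxia and -6.46 ± 0.13 against -7.66 ± 0.64 under normoxia-hyperoxia (SD, n = 3). The ranges of the strains did not overlap in any of the 4.

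Markers of other cells also differed by strain. Both thick ascending limb markers were lower in DBA/2J under normoxia (median -1.92), and neither was called in 6 h controls (-1.02), 24 h controls (-0.69) or normoxia-hyperoxia (-0.74). In 6 h controls their sum lay between 8523 and 10047 CPM for C57BL/6J, against 3416 to 5673 CPM for DBA/2J, and under normoxia between 8551 and 14894 CPM against 2043 to 4246 CPM, with no overlap in either. Endothelial markers were lower in DBA/2J in 2 of 2 in 6 h controls (-0.65) and 24 h controls (-0.85), in 1 under normoxia (-0.65) and in 0 under normoxia-hyperoxia (0.04). Under normoxia the markers of distal convoluted tubule (-0.58), principal cells (-1.18) and intercalated cells (-0.62) and 2 of 2 leukocyte markers (-0.63) were lower too. In 24 h controls the distal convoluted tubule marker was higher in DBA/2J (0.94), and under normoxia-hyperoxia both leukocyte markers were (0.74). Of 2 podocyte markers 1 was lower in DBA/2J in 6 h controls (-0.31), 24 h controls (-0.57) and normoxia (-0.53), where their sums did not overlap, and 0 under normoxia-hyperoxia (-0.27). Of 2 stromal markers 1 was lower under normoxia (-1.07) and normoxia-hyperoxia (-0.66). Hepatocyte markers were lower in DBA/2J in 2 of 2 tested in 6 h controls (-1.33) and 2 of 3 under normoxia (-2.01), in 0 of 2 in 24 h controls (-0.10), and 1 of 3 was higher under normoxia-hyperoxia (list median -0.50).

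The mitochondrial share of counts was lower in DBA/2J in 3 of these 4 conditions. It was 14.8% to 16.3% in C57BL/6J and 8.05% to 8.32% in DBA/2J 6 h controls, 5.96% to 7.87% and 3.39% to 3.60% in 24 h controls, and 22.8% to 25.6% and 11.8% to 12.8% under normoxia. Under normoxia-hyperoxia the strains overlapped, at 12.2% to 16.6% and 10.98% to 17.36%. The part of these cells and of this share in the strain differences of the members was not tested.

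Per kilobase, G6pc over Slc37a4 within a library was 2.46 ± 0.25 in DBA/2J and 1.35 ± 0.28 in C57BL/6J 6 h controls, and 3.18 ± 0.36 and 1.40 ± 0.18 under normoxia (SD, n = 3).

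**Figure D5:**
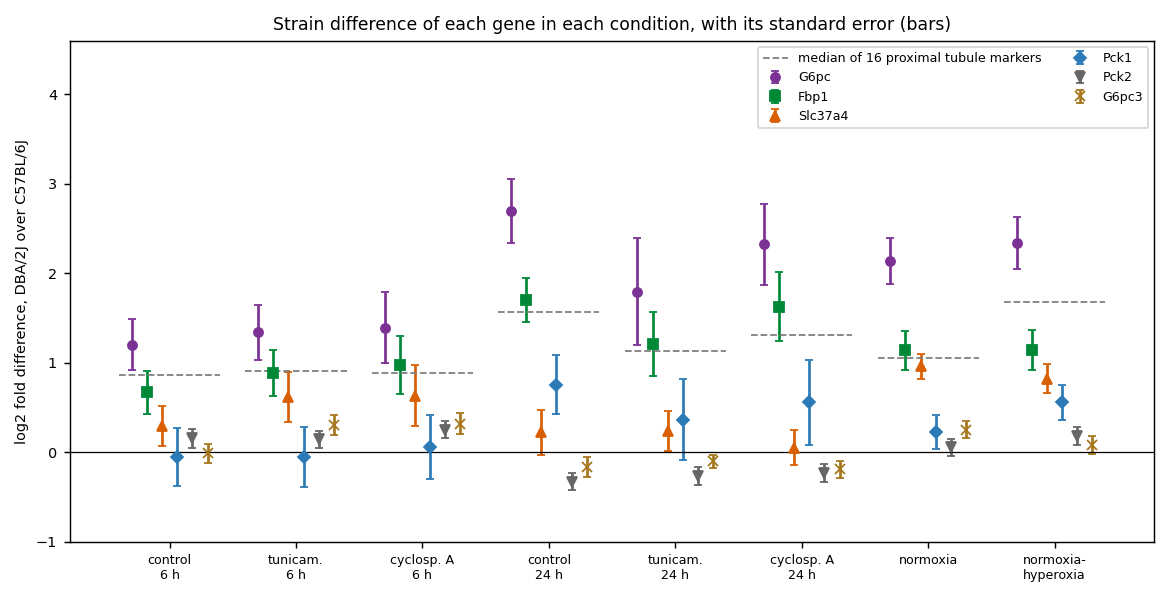
Log2 fold difference of DBA/2J over C57BL/6J for each of the 6 genes in each condition (points) with its standard error (bars); the dashed line is the median of 16 proximal tubule markers. G6pc lies above that median in each of the 8 conditions plotted, and Pck1, Pck2 and G6pc3 lie closer to 0.

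Whether the strains responded differently was tested as the interaction, the effect in DBA/2J minus that in C57BL/6J. It was called in 0 of 6 members for 24 h against 6 h controls (0.69% of all genes), although the log2 fold change of G6pc was -5.13 (SE 0.37) in C57BL/6J and -3.635 (SE 0.32) in DBA/2J. That difference of 1.49 (SE 0.46) had an adjusted p of 0.19. At an unadjusted edgeR p under 0.05, 3 members (G6pc, Fbp1 and Pck2) and 13.2% of all genes passed, and DESeq2 called 0 members and 2.12% of all genes. The count of members was higher with no filter on low counts, as given below. Replicate 2 of DBA/2J 24 h controls decided the value of Fbp1 (1.03, adjusted p 0.22), which was called without it.

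For normoxia against 24 h controls, 1 of 6 members was called (17% of all genes). With no filter on low counts more members were called, as given below. G6pc3 rose by 0.65 (SE 0.09) in C57BL/6J, from 40.4, 34.7 and 35.8 CPM to 60.5, 51.3 and 61.9 CPM. In DBA/2J it rose by 1.08 (SE 0.09), from 31.8, 33.6 and 32.7 CPM to 67.4, 65.2 and 63.2 CPM. The groups did not overlap in either strain, as for 32.1% of all genes tested in this direction. The interaction of 0.43 (SE 0.12) had an adjusted p of 0.027, and leaving out any 1 of 8 of the 12 libraries ended the call (adjusted p up to 0.153). The removals that kept it were replicate 2 of C57BL/6J 24 h controls, replicates 1 and 3 of C57BL/6J normoxia and replicate 3 of DBA/2J normoxia. Slc37a4 (0.75, SE 0.25, adjusted p 0.064) was called by DESeq2 and, without replicate 1 of C57BL/6J normoxia, by edgeR (0.0115). Pck2 was called without that library or replicate 2 of C57BL/6J 24 h controls, and Fbp1 without replicate 2 of DBA/2J 24 h controls (0.0269). With the replicate number as a block, the edgeR test called Pck2 as well (0.39, adjusted p 0.0485 against 0.0615).

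The remaining interactions were called in 0 of 6 members: normoxia-hyperoxia against 24 h controls (1.43% of all genes), normoxia-hyperoxia against normoxia (18.2%), normoxia against 6 h controls (3.66%) and normoxia-hyperoxia against 6 h controls (0.232%). At an unadjusted edgeR p under 0.05 they held 2, 0, 1 and 1 members, where 15.4%, 32.7%, 19.5% and 9.93% of all genes passed. DESeq2 called 1 (Pck2), 0, 0 and 0 members and 3.93%, 20.1%, 6.96% and 1.59% of all genes. With the replicate number as a block, normoxia against 6 h controls had 3, G6pc (0.90, adjusted p 0.00032), Slc37a4 (0.60, adjusted p 0.0054) and Fbp1 (0.42, adjusted p 0.039), and normoxia-hyperoxia against 24 h controls had Pck2 (0.54, adjusted p 0.038), so these counts of 0 depend on the block. Without replicate 2 of DBA/2J 24 h controls edgeR called Pck2 in the comparison of normoxia-hyperoxia with 24 h controls, and without replicate 2 of C57BL/6J 6 h controls it called G6pc in that of normoxia with 6 h controls. Some of these comparisons also had called members with no filter on low counts, as given below. For the drugs the interactions were called in 0 of 6 members and 0.0% of genes in each of 4 comparisons. At an unadjusted edgeR p under 0.05 they held 0 members. Of all genes, 1.74% and 2.46% passed for tunicamycin and cyclosporin A at 6 h, and 2% and 1.53% at 24 h. DESeq2 called 0 members in each, beside 1, 0, 0 and 0 genes.

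Over the 16 group means of log2 CPM, the 5 genes whose pattern was most like that of G6pc were Keg1 (Pearson r 0.996), Pdzk1 (0.996), Pdzd3 (0.995), Qprt (0.995) and Acsm5 (0.994), among 14232 genes. Pdzk1 and Pdzd3 are scaffold proteins of the apical membrane, Qprt makes an NAD precursor and Acsm5 is a mitochondrial acyl-CoA synthetase. Keg1 stood at 480 and 871 CPM in C57BL/6J and DBA/2J 6 h controls, at 59.2 and 189 CPM in 24 h controls, and at 957 and 1716 CPM under normoxia. The group means share strains, conditions and libraries across all genes, so these correlations are a description.

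Fbp1 ranked 25th of 14232 genes in likeness to G6pc (0.991), Slc37a4 502nd (0.949), Pck1 675th (0.937), G6pc3 3122nd (0.687) and Pck2 11917th (-0.744). For Pck1 the nearest genes were Car14, a membrane carbonic anhydrase (0.997), Prodh2, which acts in hydroxyproline breakdown (0.994), Miox, the inositol oxygenase of the proximal tubule (0.993), Hgd, a tyrosine breakdown enzyme (0.993), and Cmbl, a hydrolase (0.993). Slc37a4 ranked 39th in likeness to Pck1 (0.977), Fbp1 281st (0.941) and G6pc 327th (0.937). By Spearman correlation Fbp1 ranked 86th and Slc37a4 331st in likeness to G6pc, and Slc37a4 149th in likeness to Pck1, so these ranks depend on the measure. Car14 stood at 53.3 and 50.1 CPM in C57BL/6J and DBA/2J 6 h controls and at 3.36 and 6.80 CPM in 24 h controls.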

How the data were processed

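RNA of kidney slices was measured by stranded mRNA sequencing, per the labels' protocols. The authors deposited 1 table of raw counts per Ensembl gene for 48 libraries. The submitters' processing notes name bcl2fastq 2.20.0, FastQC 0.11.8, STAR 2.7.9a, featureCounts 1.5.1 and the GRCm38 build; their roles, the annotation and the strand setting are not given in the sources used here. Groups came from the labels.

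Each comparison was fitted to its 12 libraries in 4 groups with edgeR 4.0.16 (R 4.3.3): filterByExpr, TMM factors, robust quasi-likelihood test (8 residual degrees of freedom), and Benjamini-Hochberg adjustment over all genes tested with a threshold of 0.05. Changes are the mean of both strains. CPM values use TMM library sizes, and levels per kb divide them by the length of the principal transcript (all exons merged as an alternative chosen after seeing the data). The fit was tested on simulated counts with few changed genes, balanced between higher and lower, and a common dispersion. The comparisons of times and oxygen arms called far more genes, so that test does not reach their scaling. Alternatives were RLE factors, library totals alone, no filter, DESeq2 1.42.0, 1 fit of all 48 libraries, a replicate block, and each library left out.

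The members and lists were chosen with earlier results of these data known. Besides the members, the text names at most the 3 list genes with the largest called increase and decrease per list, and the 5 genes most correlated with G6pc and with Pck1. Some list genes and 1 motif under this rule are not reported here.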

Additional observations from a re-analysis of the deposited data

Results flagged for a closer look

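G6pc3 differed between the strains in its response to normoxia against 24 h controls. It rose by 0.65 on the log2 scale in C57BL/6J and by 1.08 in DBA/2J, and the test of the difference itself, 0.43 (SE 0.12), had an adjusted p of 0.027 by edgeR's quasi-likelihood test. It was higher under normoxia in 3 of 3 libraries of each strain. Over the alternatives the adjusted p ran from 0.0239 to 0.153. The call ended without any 1 of 8 of the 12 libraries (adjusted p up to 0.153), with scaling by library totals alone (0.32, adjusted p 0.091) and with 1 fit of all 48 libraries (0.35, adjusted p 0.086). For scale, 17% of all genes had a called difference of this kind.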

How the results depend on the processing

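The directions of called changes held in all alternatives run. Counts of called members that moved by more than 1.5 times are given first, and the cause was not tested. For strain differences, 6 h controls had 1 member, 2 with RLE factors, 3 with library totals alone, 3 with no filter, 2 with DESeq2 and 1 to 3 with 1 library left out. Tunicamycin at 6 h had 2, 1 with no filter and 1 to 3 with 1 library left out. Cyclosporin A at 6 h had 3, 0 with no filter and 0 to 4 with 1 library left out. Tunicamycin at 24 h had 1, 0 with no filter, 2 with DESeq2, 2 in 1 fit of all libraries and 0 to 2 with 1 library left out, and cyclosporin A at 24 h 1 to 3. For interactions, normoxia against 24 h controls had 1 member, 0 with library totals alone, 5 with no filter, 2 with DESeq2, 0 in 1 fit and 0 to 3 with 1 library left out. Normoxia-hyperoxia against 24 h controls had 0, but 1 with no filter, DESeq2 or 1 fit, and 0 to 1 with 1 library left out. With no filter, 24 h against 6 h controls had 3, and normoxia and normoxia-hyperoxia against 6 h controls 2 each; the first of these 2 and the time comparison had 0 to 1 with 1 library left out. Normoxia against 6 h controls had 3 changed members in 1 fit of all libraries, against 5. Among smaller moves, library totals alone gave 5 changes with time against 6 and 2 for normoxia-hyperoxia against 24 h controls against 3, and DESeq2 gave 3 strain differences under normoxia against 4 and 4 under normoxia-hyperoxia against 3.

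Some uncalled values changed sign. With library totals alone, normoxia-hyperoxia against 24 h controls gave -0.14 for Pck1, -0.16 for Fbp1 and -0.079 for G6pc3, and against 6 h controls 0.0094 for Pck2. With 1 library left out, these ran from -0.10 to 0.19 for Pck1, -0.12 to 0.11 for Fbp1 and -0.046 to 0.020 for Pck2, and the strain difference of Slc37a4 with cyclosporin A at 24 h from -0.097 to 0.25. Library totals alone moved the median of all genes by 0.21 for time, -0.27 for normoxia and -0.17 for normoxia-hyperoxia against 24 h controls. By Spearman correlation, 0 of the 5 genes most like G6pc and 3 of the 5 most like Pck1 were shared with the lists above.

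With the replicate block, the same 29 of 60 changes were called, interactions rose from 1 to 6 of 60, and strain differences from 19 to 21 of 48 (1 lost, 3 gained). Shares of all genes called are not given here for the block or for alternatives other than DESeq2. Counts of members under them are therefore not read as a property of the set. The block gave 2 interactions for normoxia and 1 for normoxia-hyperoxia against 24 h controls, 3 for normoxia against 6 h controls, and 4 strain differences with tunicamycin at 6 h and 0 at 24 h. Deviations of same-numbered libraries correlated from -0.101 to 0.302, and in 0 of 10 comparisons did all 6 pairs of both strains exceed 0.1, so the block was not made the reported fit. The mean over same-numbered pairs was nonetheless positive in every comparison, from 0.016 to 0.145. The reported p-values take no account of such a link. Within a strain, looked at after the calls were known, all 3 pairs exceeded 0.1 in 5 of 20 comparisons, 4 of them in DBA/2J, and a shared origin of same-numbered libraries was not tested otherwise. In 1 of the 5, normoxia against 6 h controls in DBA/2J, the block turned Pck1 from an adjusted p of 0.076 to 0.000595.

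Exon-union lengths, chosen after seeing the data, moved 46 of 96 levels per kb and 30 of 48 ratios by more than 1 SD.

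With 3 libraries a group, precision is lowest for G6pc in 24 h slices, where single libraries held as few as 38 counts.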

Other observations

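How often replicate 2 was the lowest of its group differed between members, and the labels give replicate numbers no shared origin. Over 15457 genes tested in every comparison, replicate 2 was the lowest in 2.7 of 8 conditions on average in DBA/2J and 2.9 in C57BL/6J. In DBA/2J it held the lowest level in 7 of 8 conditions for Pck1, 7 for Slc37a4, 6 for G6pc and 6 for Fbp1, but in 1 of 8 for Pck2 and 2 of 8 for G6pc3. In C57BL/6J it did so in 5 of 8 for G6pc, 5 for Fbp1, 4 for Pck1, 4 for Slc37a4, 5 for Pck2 and 7 for G6pc3. Of all these genes, replicate 2 was the lowest in 6 or more conditions for 9.26% in DBA/2J, and in 4 or more for 34.7% and 5 or more for 17.5% in C57BL/6J. The share for 7 or more conditions was 3.22% in DBA/2J and 1.02% in C57BL/6J. The members were measured in the same libraries, so their counts are not independent.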
